A study of Mus musculus with 8 samples.

Results

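The genes described here are 8 transcripts of muscle protein breakdown, chosen by symbol: the muscle-specific RING finger (MuRF) ligases Trim63 (MuRF1), Trim55 (MuRF2) and Trim54 (MuRF3), the F-box genes Fbxo32 (atrogin-1) and Fbxo31, and the forkhead factors Foxo1, Foxo3 and Foxo4. All 8 were found among the 24411 gene symbols of the tables, and all 8 were among the 13506 genes with enough reads to be tested. They were measured by sequencing of polyadenylated RNA from whole hearts of C57BL/6 mice, 1 week after transverse aortic constriction, a narrowing of the aorta that raises the load on the left ventricle. Hearts of 4 mice with a cardiac-specific knockout of the transcription factor Yin-Yang 1 (YY1 KO) were compared with hearts of 4 MerCreMer control mice. MerCreMer is a ligand-activated Cre recombinase, and every heart of both groups had undergone the constriction, so the comparison is between genotypes under load. The sources used here do not give the promoter of the Cre, its ligand, the floxed status of the controls or the age of the mice.

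Muscle mass depends on the balance of protein synthesis and breakdown. A ubiquitin ligase marks a protein for the proteasome, and Trim63 and Fbxo32 are the ligase genes best known for rising in wasting skeletal and cardiac muscle. MuRFs are RING ligases that sit on the sarcomere and bind titin, whereas F-box proteins choose the substrates of SCF ligases, which are built on Skp1, a cullin and Rbx1. FOXO factors are kept out of the nucleus when insulin signalling through Akt is active, and in the nucleus they can switch on both Fbxo32 and Trim63.

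The libraries held 23869112 to 23966753 reads, with 14582605 to 16000455 counted in genes. The deleted gene Yy1 stood at 33.8, 37.2, 36.3 and 37.1 CPM (reads per 1000000 counted reads, scaled by TMM, which corrects library size for composition) in controls 1 to 4 and at 18.0, 22.3, 19.9 and 23.8 CPM in YY1 KO hearts 1 to 4, so the groups did not overlap (log2 fold change −0.78 ± 0.10 SE, edgeR adjusted p = 0.000769). The labels call all mice male, but controls 1 and 4 and YY1 KO hearts 1 and 4 held 138 to 219 CPM of Xist and at most 0.134 CPM of 4 Y-linked genes. The other hearts held at most 0.385 CPM of Xist and 162 to 196 CPM of the Y-linked genes. Each genotype thus had 2 Xist-positive and 2 Y-positive hearts, and values within each kind are given beside the results. Between 342 and 5553 reads lay behind each value of a member, so counting error was at most 5.41% of a value. No 50-base stretch was shared between transcripts of Trim63, Trim55 and Trim54, of the 3 FOXO genes, or of Fbxo32 and Fbxo31, and 0.199 to 4.80% of strand-resolved reads at the members lay on the opposite strand.

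Promoter windows of RefSeq (GRCm38.p6, 250 bases before to 50 after the start site) were available for 5 of the 8 members: Trim63, Trim54, Fbxo31, Foxo1 and Foxo3. Those of Trim63 and Trim54 are shown because Trim63 passed the test of a lower level described below and its relative Trim54 did not. The pair was thus chosen by the result, and no window was available for Trim55. Capitals mark matches to the FOXO core (GTAAACA, or TGTTTAC on the other strand), the hexamer of the glucocorticoid receptor element (AGAACA or TGTTCT), the E-box CAGCTG of myogenic factors and the TATA box (TATAAA or TTTATA).
Trim63, chr4:134314870-134315169, plus strand: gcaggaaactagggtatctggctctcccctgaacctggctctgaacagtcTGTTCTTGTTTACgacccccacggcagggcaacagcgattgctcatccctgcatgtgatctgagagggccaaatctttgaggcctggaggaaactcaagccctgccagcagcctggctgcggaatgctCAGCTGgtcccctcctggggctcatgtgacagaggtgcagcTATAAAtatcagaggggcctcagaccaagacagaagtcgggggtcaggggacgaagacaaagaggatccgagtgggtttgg
Trim54, chr5:31116362-31116661, plus strand: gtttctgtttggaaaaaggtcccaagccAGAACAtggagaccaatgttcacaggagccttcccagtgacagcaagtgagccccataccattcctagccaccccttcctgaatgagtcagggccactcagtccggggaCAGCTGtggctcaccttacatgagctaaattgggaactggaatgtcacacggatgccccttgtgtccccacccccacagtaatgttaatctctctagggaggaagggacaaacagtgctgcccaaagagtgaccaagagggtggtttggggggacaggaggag
In the Trim63 window the receptor hexamer begins at −200 and the FOXO core at −194 from the start site, so that they abut in 1 run of capitals, with the E-box at −72 and the TATA box at −31. The Trim54 window holds the receptor hexamer at −222 and the E-box at −113, with no match to the FOXO core or the TATA box. This window ends at 31116661, whereas the gene position given below for Trim54 starts at 31116712. By that start the whole window lies upstream, so its offsets and the lack of a TATA box depend on the start site used. The Trim63 window holds the start of its gene position, 134315120. The FOXO core occurs in 3.65% of the 32851 promoter windows, the receptor hexamer in 19.0%, the E-box in 16.3% and the TATA box in 13.6%. None of these motifs matched in the windows of Fbxo31, Foxo1 or Foxo3. The YY1 sequence CCATNTT (or AANATGG), found in 16.1% of windows, matched at −220 in that of Trim54, where it overlaps the receptor hexamer, and in none of the other 4. The longer AAGATGGC (or GCCATCTT; 2.75% of windows) and the palindrome of 2 receptor hexamers spaced by 3 bases (0.00913% of windows) matched in none of the 5. These matches describe letters and are not measured binding sites.

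Of the 8 members, 2 fell in YY1 KO hearts (Trim63 and Trim55), 0 rose and 6 did not pass, by edgeR's quasi-likelihood test with a threshold of 0.05 on the adjusted p. Of all tested genes 38.9% were called, 17.3% lower and 21.6% higher. The count of lower members, 25.0% of 8, is close to that background, so the results below are about single genes rather than the group. At an unadjusted p under 0.05 there were 3 lower and 0 higher members, and DESeq2 called 3 lower and 0 higher. The median log2 fold change of the 8 was −0.27, against 0.01 for all tested genes.

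Trim63 (mm10 chromosome 4, 134315120 to 134329629, plus strand) encodes MuRF1, which marks thick-filament proteins and cardiac troponin I for breakdown. It stood at 305, 288, 247 and 276 CPM in controls 1 to 4 and at 156, 193, 164 and 164 CPM in YY1 KO hearts 1 to 4. Every knockout heart lay below every control heart. The mean fell from 279 ± 24.3 to 169 ± 16.3 CPM (SD, n = 4), or to 60.6% of control (log2 fold change −0.72 ± 0.10 SE, edgeR adjusted p = 0.00109). The log2 fold change was −0.86 in the Xist-positive hearts alone (adjusted p = 0.1) and −0.60 in the Y-positive hearts alone (adjusted p = 0.0432), and between −0.79 and −0.68 when any 1 heart was left out (highest adjusted p = 0.00626). The summed level of 8 cardiomyocyte markers also lay lower, at 50054 to 71657 CPM in knockouts and 75676 to 102151 CPM in controls. In whole heart, fewer cardiomyocytes and less of a transcript per cardiomyocyte cannot be told apart.

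Trim55 (chromosome 3, 19644474 to 19692421, plus strand) encodes MuRF2, a partner of the titin kinase that can carry a signal to the nucleus. Its controls read 110, 98.7, 98.0 and 97.6 CPM and its knockouts 73.3, 77.6, 83.8 and 79.6 CPM, again without overlap. The mean fell from 101 ± 5.79 to 78.6 ± 4.36 CPM, or to 77.8% of control (log2 fold change −0.36 ± 0.08 SE, edgeR adjusted p = 0.00639). Leaving out any 1 heart kept it between −0.39 and −0.33 with adjusted p of at most 0.0206, but it was not called within either kind of heart (−0.44 in Xist-positive hearts, adjusted p = 0.154, and −0.30 in Y-positive hearts, adjusted p = 0.119). Trim55 and Trim63 had 2 of the 3 lowest spreads between knockout hearts, with a coefficient of variation (SD over mean) of 5.55% and 9.61%.

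Trim54 (chromosome 5, 31116712 to 31137630, plus strand) encodes MuRF3, which stabilizes microtubules and binds the Z-disc. It stood at 303, 290, 266 and 252 CPM in controls and at 204, 377, 223 and 237 CPM in knockouts. YY1 KO 2 was the highest of all 8 hearts, and the other 3 knockouts lay below every control. The log2 fold change was −0.09 ± 0.19 SE (edgeR adjusted p = 0.715). Without YY1 KO 2 it was −0.33 with edgeR adjusted p = 0.0427, and without YY1 KO 1 it was 0.01. Leaving out a single heart thus moved the value in either direction.

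**Figure D1:**
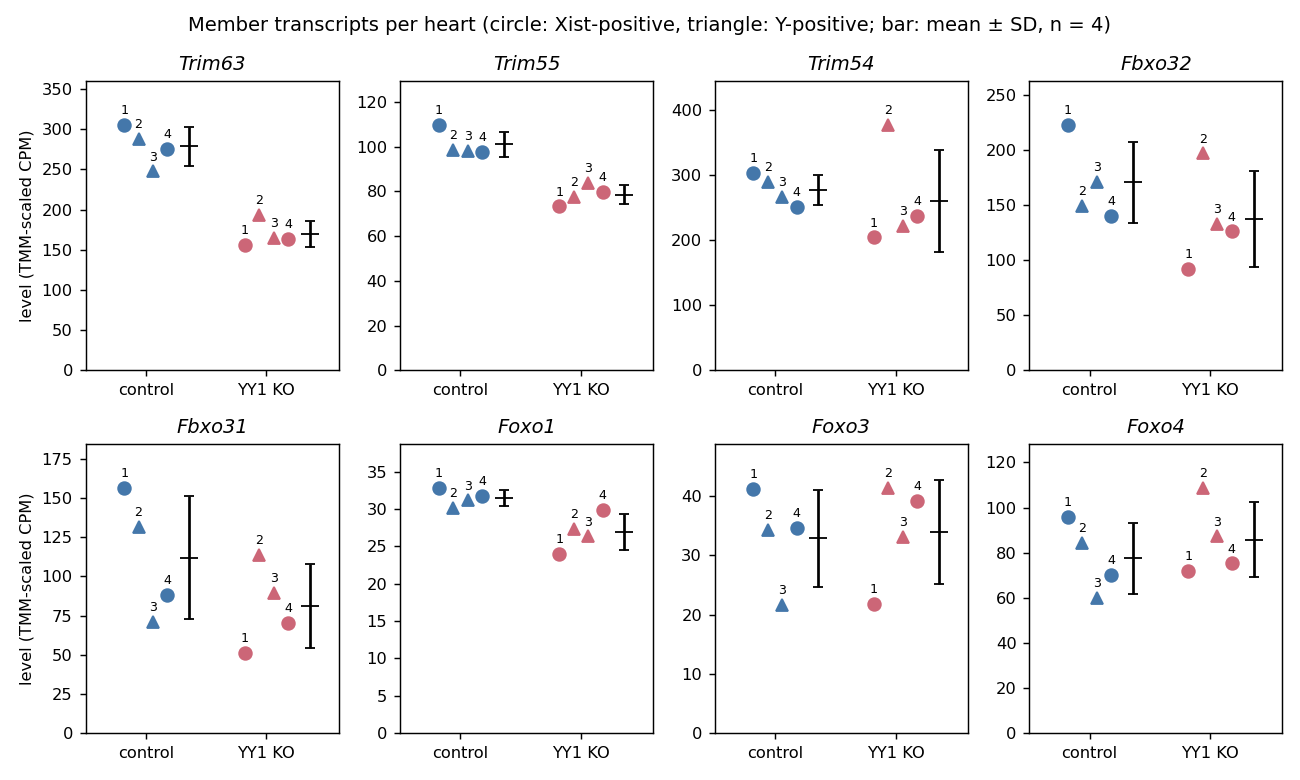
Level of each member in every heart (TMM-scaled CPM, y axes from 0), with the mouse number beside each point, circles for Xist-positive and triangles for Y-positive hearts, and bars for mean ± SD (n = 4). Trim63 and Trim55 separate the genotypes, the 3 lower knockouts of Trim54 sit under YY1 KO 2 at 377 CPM, and the points of the F-box genes, Foxo3 and Foxo4 interleave.

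The F-box genes varied more between hearts of the same genotype. Fbxo32 (chromosome 15, 58175879 to 58214932, minus strand) encodes atrogin-1, which in heart targets the phosphatase calcineurin. Its levels were 223, 150, 171 and 141 CPM in controls and 92.2, 197, 133 and 126 CPM in knockouts. The groups overlapped, since YY1 KO 2 exceeded 3 of the 4 controls. The log2 fold change was −0.32 ± 0.23 SE (edgeR adjusted p = 0.298), with −0.54 (adjusted p = 0.0588) without YY1 KO 2 and −0.17 without either control 1 or YY1 KO 1. In the Xist-positive hearts alone it was −0.74 (adjusted p = 0.204) and in the Y-positive hearts 0.03 (adjusted p = 0.939).

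Fbxo31 (chromosome 8, 121549440 to 121578806, minus strand) directs the breakdown of cyclin D1 after DNA damage. It had the widest spread of the members among controls (coefficient of variation 35.1%), at 157, 132, 70.9 and 88.3 CPM, and stood at 50.9, 114, 89.5 and 70.1 CPM in knockouts. The groups overlapped (log2 fold change −0.47 ± 0.30 SE, edgeR adjusted p = 0.238). The value was −1.02 in Xist-positive and −0.02 in Y-positive hearts (adjusted p = 0.157 and 0.973), and −0.27 without control 1. With 1 surrogate variable in the model, an estimated hidden factor, it was −0.53 with adjusted p = 0.00121.

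The FOXO genes did not pass. Foxo1 (chromosome 3, 52268336 to 52353221, plus strand), a main target of insulin signalling, read 32.8, 30.1, 31.1 and 31.7 CPM in controls and 23.98, 27.4, 26.3 and 29.9 CPM in knockouts. The groups did not overlap, but YY1 KO 4 and control 2 nearly met, and groups lay apart for 38.3% of tested genes, 16.5% with the knockouts below. The log2 fold change was −0.23 ± 0.09 SE (edgeR adjusted p = 0.0681). It passed with RLE scaling (adjusted p = 0.0496), in DESeq2 (adjusted p = 0.0457), with the surrogate variable (adjusted p = 0.0465) and without YY1 KO 4 (−0.28, adjusted p = 0.0335), each with a negative sign. Foxo1 is also expressed in vessels. Of 8 endothelial markers 7 fell, with a summed level of 1178 to 1503 CPM in knockouts and 1745 to 2366 CPM in controls. The order within a group could differ, since control 1 had the highest Foxo1 of the controls and the lowest sum of these markers. The part of endothelial cells in the Foxo1 values was not tested.

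Foxo3 (chromosome 10, 42181841 to 42276755, minus strand), the FOXO member first tied to atrogin-1 induction in muscle, read 41.2, 34.2, 21.6 and 34.7 CPM in controls and 21.8, 41.4, 33.1 and 39.3 CPM in knockouts. Control 3 and YY1 KO 1 were the low hearts of an otherwise shared range (log2 fold change 0.04 ± 0.23 SE, edgeR adjusted p = 0.900). The sign turned negative without control 3 (−0.12), YY1 KO 2 (−0.07) or YY1 KO 4 (−0.04). Foxo4, the X-linked member (chromosome X, 101254528 to 101260873, plus strand), read 95.9, 84.3, 59.9 and 70.2 CPM in controls and 71.8, 109, 87.2 and 75.2 CPM in knockouts. The groups overlapped in part: controls 3 and 4 lay below every knockout and YY1 KO 2 above every control (log2 fold change 0.14 ± 0.17 SE, edgeR adjusted p = 0.534). Within the Y-positive hearts both knockouts exceeded both controls (0.42, adjusted p = 0.18), whereas the Xist-positive hearts overlapped (−0.18, adjusted p = 0.600).

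In 1 edgeR fit of all 8 hearts with a term for the kind of heart, the genotype difference of 7 of the 8 members was more negative in Xist-positive than in Y-positive hearts by at least 0.15 on the log2 scale, and that of Foxo1 by 0.07. This interaction was 1.02 for Fbxo31, 0.78 for Fbxo32, 0.73 for Foxo3 and 0.62 for Foxo4. None passed the test of the interaction, with unadjusted p of 0.0930, 0.0947, 0.153 and 0.0864 for these 4 and adjusted p of at least 0.812 for all 8. The 8 members share the same 8 hearts, so these are not separate observations. Control 1 and YY1 KO 1, both Xist-positive, held the highest control and the lowest knockout value of all 8 members with TMM scaling. In the other Xist-positive hearts, control 4 and YY1 KO 4, Fbxo31 read 88.3 and 70.1 CPM and Fbxo32 141 and 126 CPM. Foxo3 read 34.7 and 39.3 CPM there, and Foxo4 70.2 and 75.2 CPM. How far the interaction rests on control 1 and YY1 KO 1 was not tested. The test called 0 genes of the table, and 702 had an unadjusted p under 0.05.

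**Figure D2:**
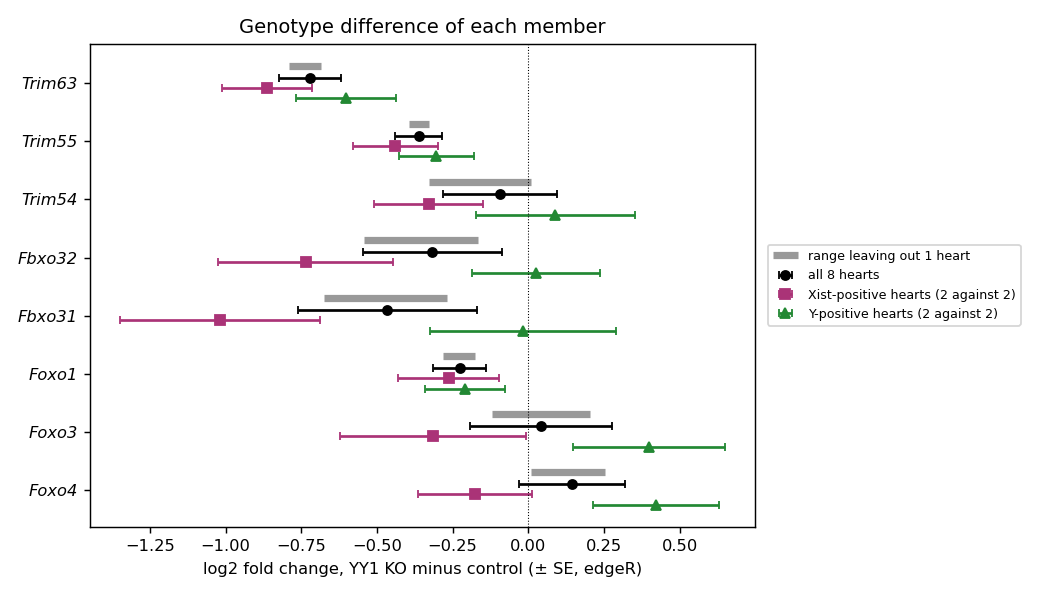
Log2 fold change of each member (x axis, YY1 KO minus control; bars are SE from edgeR) in all 8 hearts and within the Xist-positive and Y-positive hearts, with grey bands for the range when 1 heart is left out. Trim63, Trim55, Fbxo31 and Foxo1 stay left of 0 in every fit shown, Fbxo31 only just in the Y-positive hearts (−0.02), while Fbxo32, Trim54, Foxo3 and Foxo4 reach both sides.

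The members varied together across hearts. Control 1 held the highest control value of all 8 members, and YY1 KO 1 the lowest knockout value of all 8, under TMM, RLE and upper quartile scaling. With library size alone these counts were 7 and 6. YY1 KO 2 was the highest knockout for 6 members. The summed level of 8 cardiomyocyte markers had the same extremes, with 102151 CPM in control 1 and 50054 CPM in YY1 KO 1. The other controls held 75676 to 93984 CPM and the other knockouts 68686 to 71657 CPM, so the groups lay apart. Of these markers Myl2, Myl3 and Actc1 fell and 5 did not pass. Control 1 also had the lowest level of the load-responsive Nppa, 159 CPM, against 1213 to 4283 CPM in the other 7 hearts. Among markers of other muscle, the atrial genes Myl7, Sln and Bmp10 and the fast skeletal genes Myh1, Myh2, Myh4 and Actn3 did not reach the level for testing, and Bmp10 and Myh4 had 0 reads in every heart. Of the atrial list Myl4 rose, and of the skeletal list Tnnt3 rose and Ckm fell.

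**Figure D3:**
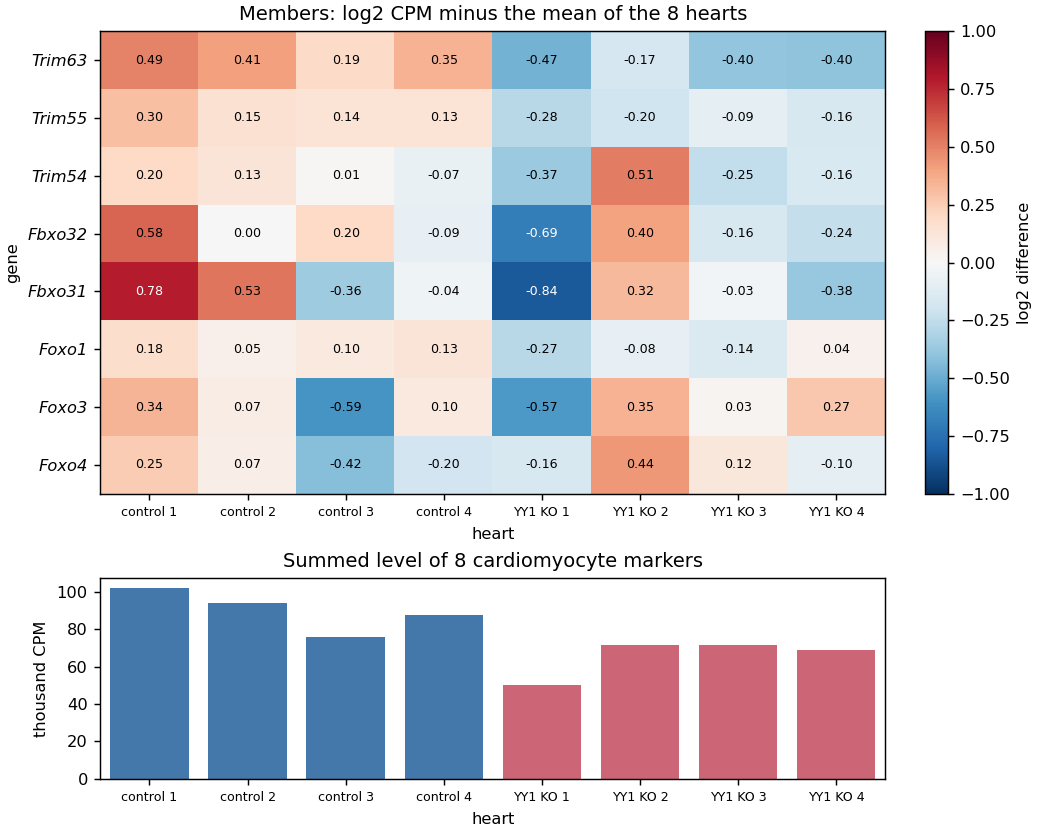
Upper panel, log2 CPM of each member in each heart minus its mean over the 8 hearts (red above, blue below). Lower panel, summed CPM of the 8 cardiomyocyte markers in the same hearts (bars from 0; blue control, red YY1 KO), which was highest in control 1 and lowest in YY1 KO 1, as were the members within their groups.

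The members were then set against that marker sum. Per 1000 CPM of cardiomyocyte markers, Trim63 read 2.99, 3.06, 3.27 and 3.14 CPM in controls and 3.11, 2.69, 2.31 and 2.38 CPM in knockouts. YY1 KO 1 then lay among the controls, and the mean of 2.62 ± 0.366 in knockouts was 84.2% of the control mean of 3.12 ± 0.121 (two-sided exact permutation p = 0.0857, adjusted p = 0.183 over 8 members). Trim55 on this scale was 107.8% of control (exact permutation p = 0.486), Fbxo32 108.8% (p = 0.686) and Fbxo31 100.1% (p = 1.0). Foxo3, at 141.6% of control, and Foxo4, at 153.8%, were higher in every knockout than in every control, each with an exact permutation p = 0.0286, the smallest that 4 against 4 hearts allow, and an adjusted p = 0.114. The marker sum was itself lower in every knockout than in every control, so a gene at an unchanged level reads above control here. Before this scaling the groups overlapped for Foxo3 and Foxo4 (log2 fold change 0.04 and 0.14, neither called). No member passed on this scale, which was chosen after the values were seen and which the fall of 3 of the 8 markers also moves. Groups that lie fully apart cannot give an adjusted p under 0.05 here unless several members reach the smallest p. Not passing therefore says little about Foxo3 and Foxo4 on this scale. Myh6, the most abundant of the 8 markers, did not pass but also moves it (39100 ± 5720 CPM in controls, 28471 ± 6222 CPM in knockouts). How many of all genes lie apart on this scale was not computed.

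Levels of different genes were compared per kilobase of exon (RPKM). In controls Trim54 was highest at 193 ± 16.02 RPKM, followed by Trim63 at 98.2 ± 8.54 and Trim55 at 37.99 ± 2.18 (SD, n = 4). The control ranges of Fbxo32 (24.5 ± 5.28), Foxo4 (22.3 ± 4.53) and Fbxo31 (20.4 ± 7.16 RPKM) overlapped, so these 3 have no order. Foxo3 (4.35 ± 1.08) and Foxo1 (3.63 ± 0.130 RPKM) were lowest and also overlapped. In knockouts Trim54 stood at 181 ± 55.0, Trim63 at 59.5 ± 5.72 and Trim55 at 29.6 ± 1.64 RPKM.

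The makeup of the MuRF transcripts, which does not depend on library scaling, differed between the groups without overlap for Trim63 and Trim54. Trim63 made up 29.9, 29.8, 28.1 and 31.4% of MuRF reads per kilobase in controls and 24.4, 18.9, 23.7 and 22.8% in knockouts, a difference of −7.36 percentage points. Trim54 made up 58.7, 59.3, 59.96 and 56.7% in controls and 63.3, 73.0, 63.4 and 65.4% in knockouts. Each had a two-sided exact permutation p = 0.0286, the smallest this design allows, but an adjusted p = 0.0857 over the 6 shares tested. Full separation of Trim63 and Trim54 alone could not bring this adjusted p under 0.05. Trim55 kept 11.5 ± 0.464% in controls and 11.3 ± 2.15% in knockouts (p = 0.943, exact permutation). Among FOXO transcripts Foxo4 made up 73.4 ± 1.98% in controls and 76.3 ± 3.34% in knockouts, with overlap in all 3 shares (exact permutation adjusted p of at least 0.286). Shares of a family sum to 100% and are not independent.

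**Figure D4:**
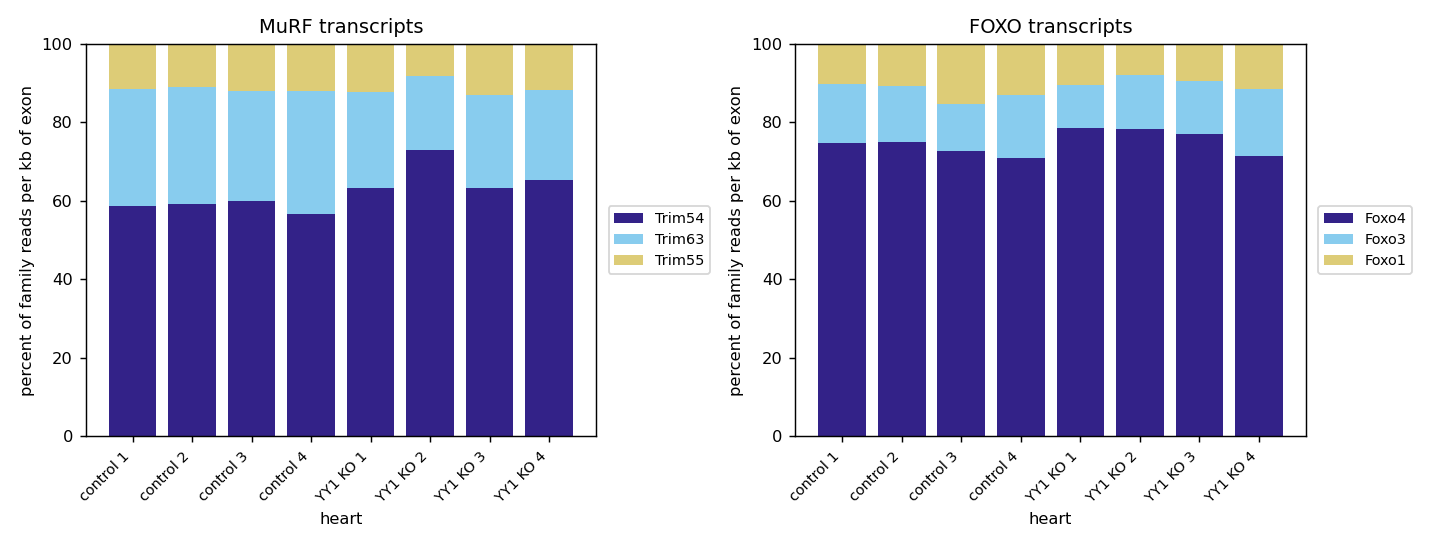
Share of each transcript in the MuRF family (left) and the FOXO family (right) per heart, in percent of the family's reads per kilobase of exon (bars fill 0 to 100). The Trim63 segment spans 28.1 to 31.4% in controls and 18.9 to 24.4% in knockouts, while Foxo4 fills most of the FOXO bar in every heart.

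Trim63 was also set against the other members by the log2 ratio of its reads to theirs within each heart, a comparison added after the values were seen. The ratio was lower in every knockout than in every control against Trim54 (−0.59), Trim55 (−0.36), Foxo1 (−0.49), Foxo3 (−0.76) and Foxo4 (−0.87), each with exact permutation p = 0.0286 and adjusted p = 0.04 over 7 ratios. Against Fbxo32 the ratio was 0.73 ± 0.27 in controls and 0.35 ± 0.32 in knockouts, with overlap (difference −0.38, exact permutation p = 0.143, adjusted 0.167). Against Fbxo31 the difference was −0.26 (exact permutation p = 0.343). Trim63 had the largest fall of the members, and all 7 ratios share its reads. The p-values therefore cannot test whether its fall was particular to it. Against the 2 F-box genes no difference was shown.

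By the smallest root-mean-square difference of centred log2 CPM over the 8 hearts, among 12324 genes, the profile of Trim63 was most like those of Med16, a Mediator subunit gene (0.06), the retinoid receptor gene Rxra (0.06) and the vesicle protein gene Syngr2 (0.08). Those nearest to Trim55 were Lpgat1 (0.04), a lipid acyltransferase gene, Prr12 (0.04) and Papd5 (0.05), a poly(A) polymerase gene. Rxra, for example, went from 98.2 ± 13.5 to 58.9 ± 4.56 CPM. The log2 fold changes of Med16 (−0.69), Rxra (−0.74) and Syngr2 (−0.75) lay near that of Trim63 (−0.72), and 2337 tested genes fell. A like profile thus includes a like genotype difference, and shared regulation was not tested.

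Some single genes among the other ligases and adaptors of muscle fell by more than any member. Of 27 tested, 9 fell (33.3%) and 2 rose (7.41%), against 17.3% and 21.6% of all tested genes. The other 16 did not pass, and the median log2 fold change of the list was −0.18. Neither this list nor those below were tested as sets. Asb15, a cullin adaptor gene of striated muscle, read 121, 99.0, 48.5 and 66.0 CPM in controls and 6.23, 16.03, 14.8 and 20.9 CPM in knockouts (log2 fold change −2.53 ± 0.39 SE). Rnf207, a cardiac RING finger gene linked to repolarization, fell from 118 ± 30.6 to 26.1 ± 10.8 CPM (−2.17 ± 0.29). Both had groups that lay well apart. Klhl41 (−1.05 ± 0.12) and Klhl31 (−0.74 ± 0.11), kelch adaptor genes of muscle, fell too, as did Fbxo21 (−1.39 ± 0.23), an F-box gene induced in muscle wasting, and Fbxl22 (−1.13 ± 0.18), an F-box gene of the Z-disc. Ubr4, a ligase gene of the N-degron pathway, rose from 241 ± 12.3 to 384 ± 42.1 CPM (0.67 ± 0.10), and Fbxo30 (MUSA1), another wasting-induced F-box gene, rose by 0.35 ± 0.11. EdgeR adjusted p was at most 0.00187 for those named apart from Fbxo30 (0.0338). Leaving out 1 heart gave 7 to 9 lower genes and 1 to 3 higher ones, the lowest count of higher genes arising when YY1 KO 1 or 3 or control 1, 3 or 4 was absent.

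Of 21 tested genes of the SCF core and ubiquitin supply, 7 rose (33.3%) and 2 fell (9.52%), against 21.6% and 17.3% of all tested genes. The other 12 did not pass, and the median log2 fold change of the list was 0.22. Those that rose included Nedd8, the modifier that activates cullins (56.8 ± 2.29 to 75.0 ± 8.70 CPM, 0.40 ± 0.09), and 2 genes for its attachment, Ube2m (0.36 ± 0.07) and Dcun1d1 (0.41 ± 0.08), as well as Cops5, the signalosome subunit that removes it (0.41 ± 0.11). The conjugating enzyme gene Ube2d1 fell (−0.58 ± 0.10). EdgeR adjusted p was at most 0.0142 for these. Leaving out YY1 KO 2 or 3 or control 2 or 4 left 4 higher genes, and scaling by library size alone gave 13. Of the core subunits of the SCF ligase, Skp1a (the Skp1 gene, 0.29 ± 0.11, edgeR adjusted p = 0.0614), Cul1 and Rbx1 did not pass.

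Upstream of the FOXO factors, 10 of 35 genes fell (28.6%) and 1 rose (2.86%), against 17.3% and 21.6% of all tested genes. The other 24 did not pass, and the median log2 fold change of the list was −0.15. Foxo6, the fourth family member, was scarce and fell from 7.47, 3.35, 2.27 and 2.91 CPM in controls to 0.594, 0.475, 0.715 and 0.312 CPM in knockouts (−2.91 ± 0.45). Ywhae, a 14-3-3 gene of the kind that holds phosphorylated FOXO in the cytosol, fell by 0.69 ± 0.11 on the log2 scale, the glucocorticoid receptor gene Nr3c1 by 0.61 ± 0.10, the acetyltransferase gene Ep300 by 0.42 ± 0.08 and the AMP-activated kinase gene Prkaa1 by 0.67 ± 0.13. EdgeR adjusted p was at most 0.00399 for these 5. Akt1, Akt2 and Sirt1 did not pass. The 1 gene that rose was the kinase gene Stk4 (0.30 ± 0.08, adjusted p = 0.0212), which lost its call when YY1 KO 1 or 3 or control 4 was absent. Without YY1 KO 3 the number that fell was 6, and without YY1 KO 2 the number that rose was 2.

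Known FOXO targets moved in both directions. Of 30 tested, 8 rose (26.7%), 3 fell (10%) and 19 did not pass, and the median log2 fold change was 0.02, so the share that rose was near the background. The cell cycle inhibitor gene Cdkn1a rose by 2.08 ± 0.26, the translation repressor gene Eif4ebp1 by 0.87 ± 0.15 and the autophagy kinase gene Ulk2 by 0.53 ± 0.10, whereas Sod2, the mitochondrial superoxide dismutase gene, fell by 0.74 ± 0.16. Fbxo21 and Fbxo30 are in this list as well as in that of the ligases, and Insr in that of the regulators. EdgeR adjusted p was at most 0.00657 for those named here with values. When YY1 KO 3 or control 4 was left out, 5 targets rose. When YY1 KO 1 or 3 or control 2 was left out, 2 fell, and when YY1 KO 4 was left out, 5 fell.

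For substrates and partners of the MuRFs and atrogin-1, transcripts were measured and proteins were not. Of 21 such transcripts, 7 fell (33.3%) and 4 rose (19.0%), against 17.3% and 21.6% of all tested genes. The other 10 did not pass. The partners of MuRF2 at the titin kinase moved apart: Sqstm1 rose from 524 ± 24.5 to 1010 ± 187 CPM (0.95 ± 0.14, edgeR adjusted p = 0.00120), whereas Nbr1 fell by 0.29 ± 0.09 (adjusted p = 0.0365) and Srf, the factor at the end of that route, by 0.36 ± 0.08 (adjusted p = 0.00895). Transcripts of the MuRF1 substrates Myl2 (−1.27 ± 0.21) and Ckm (−3.20 ± 0.68) fell, and so did that of Rxra (−0.74 ± 0.11), a dimer partner of PPAR alpha. Ccnd1, the cyclin recognized by Fbxo31, fell by 1.504 ± 0.319. EdgeR adjusted p was at most 0.00609 for these 4. The sarcomere genes of this list did not move as 1 group. Myh7 (1.75 ± 0.50, edgeR adjusted p = 0.0217) and Mybpc3 (0.50 ± 0.15, adjusted p = 0.0244) rose, and Ttn, Myh6, Tnni3 and Tnnt2 did not pass. Leaving out YY1 KO 2 or 3 or control 4 left 2 higher genes.

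**Figure D5:**
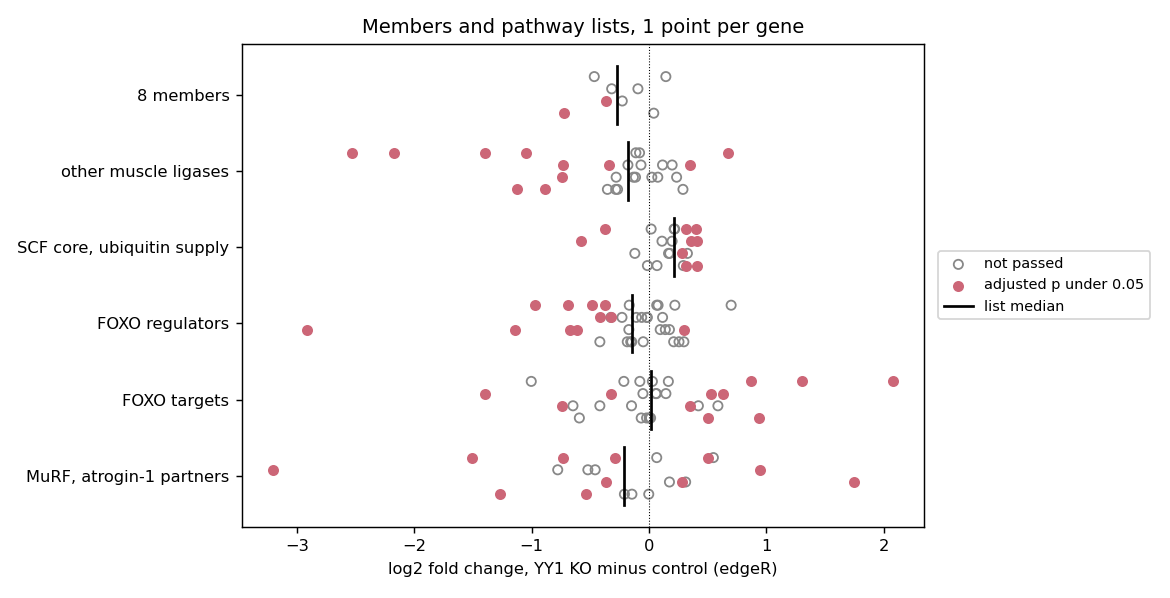
Log2 fold change (x axis, YY1 KO minus control) of every tested gene of the 8 members and of 5 pathway lists, filled where the edgeR adjusted p was under 0.05, with a black line at each list median. The medians run from −0.27 for the members to 0.22 for the SCF core and ubiquitin supply, and the largest decreases are those of Ckm, Foxo6, Asb15 and Rnf207.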

How the data were processed

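The authors deposited 1 table of raw read counts per gene symbol for each of 8 hearts (4 control, 4 YY1 KO, grouped by the labels). The submitters' processing notes name Trimmomatic, STAR and mm10. Versions, settings and annotation: not given in the sources used here. Counts irrespective of strand were used. The tables hold multi-mapping reads apart from the genes, so genes with near-identical copies are uncertain. The 33.0 to 38.9% of reads not assigned to a gene were left out.

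Genes passing edgeR's filterByExpr (minimum count 10 in 4 libraries) were tested with edgeR 4.0.16 (TMM, robust quasi-likelihood F test, group alone), adjusted by Benjamini-Hochberg over all 13506 genes at a threshold of 0.05. SE is the log2 fold change divided by the square root of F. Labels number separate mice. Exon lengths and positions came from GENCODE M21 (GRCm38, the build of mm10). Exact permutation tests used scipy 1.17.1. The edgeR test was checked on simulated data in which far fewer genes changed than were called here.

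The members and lists were chosen with earlier results of these data known. Named genes were the members, Yy1, up to 5 genes of smallest p per pathway list, every called gene of lists with at most 5 calls, and the 3 nearest profiles of each called member. Other named genes were added after their values were seen. These were Fbxl22, Fbxo30, Stk4, Nbr1, Srf, Myh7, Mybpc3, Nppa, the uncalled genes of the SCF core, regulator and substrate lists, and the markers. Alternatives were other scalings, filters, strand and length settings, DESeq2 1.42.0, limma-voom 3.58.1, a surrogate variable (sva 3.50.0), a replicate block, a sex term, each kind of heart alone, and leaving out hearts.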

Additional observations from a re-analysis of the deposited data

Results flagged for a closer look

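Trim55 in control 1, at 110 CPM, lay far from the other controls, which read 97.6 to 98.7 CPM. The gap was 0.908 of the range of the group, above Dixon's critical value for 4 samples. Chance passes this limit in about 1 in 20 groups, and it was passed once in the 28 groups of values examined. Without control 1 the fall of Trim55 was still called.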

How the results depend on the processing

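Trim63 and Trim55 stayed lower and called under every scaling, filter, tool, strand setting, added term and heart left out, but not in every fit of 2 against 2 hearts, nor relative to cardiomyocyte markers. In the Xist-positive hearts alone edgeR called 0 genes higher and 0 lower (1852 and 1599 at an unadjusted p under 0.05), and so 0 members. In the Y-positive hearts alone it called 1730 higher and 1606 lower genes, and 1 member lower, Trim63. With 1 surrogate variable 4 members were lower, in a fit that also called more of all genes (3220 lower and 3705 higher, against 2337 and 2911). Over the fits that left out 1 heart, 2 to 3 members were lower. Signs turned for members that were not called: in the Xist-positive hearts Foxo3 (−0.31) and Foxo4 (−0.18), in the Y-positive hearts Fbxo32 (0.027) and Trim54 (0.089), Trim54 without YY1 KO 1 (0.0075, range without 1 heart −0.33 to 0.0075) and without the first control and first knockout together (0.050, an alternative added after the data were seen), and Foxo3 without control 3 (−0.12), YY1 KO 2 (−0.07) or YY1 KO 4 (−0.04), with a range up to 0.20. Relative to the summed cardiomyocyte markers, also added later, Fbxo32 (0.12), Trim54 (0.36), Trim55 (0.11), Fbxo31 (0.00074) and Foxo1 (0.24) turned positive, and Trim63 was −0.25. The cause of these changes was not tested. The share difference of Trim63 kept between −8.02 and −6.17 points without 1 heart, and that of Trim54 between 5.38 and 8.61, while Trim55 (−0.80 to 0.79) and Foxo3 (−1.54 to 0.70) took either sign. Same-numbered hearts correlated at −0.53, 0.29, −0.15 and 0.21 in their deviations from the group means. These few values take either sign and cannot settle whether the numbers pair the mice, and the main test used no pairing. With the replicate block 2210 genes were higher and 1816 lower, and 2 members were lower.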
